A study of Mus musculus with 6 samples.

Results

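The 10 genes described here encode chaperones and folding enzymes of the endoplasmic reticulum (ER), namely Hspa5, Hsp90b1, Pdia3, Pdia4, Pdia6, Calr, Dnajb11, Hyou1, Sdf2l1 and Manf. They were chosen by gene symbol, with earlier results of these data known, and each matched 1 row of the 45777 genes in the deposited liver table. All 10 passed the filter on low counts that left 17274 genes for testing. The samples were livers of 6 male C57BL/6 mice on a high-fat diet (HFD), with 1 library per mouse. In the control group, 3 littermates carried the floxed ferroportin gene without Cre (Fpn flox/flox, hereafter LT). In the other, 3 mice carried the same floxed alleles together with Alb-Cre (Alb-Cre; Fpn flox/flox, hereafter Fpn-LKO). The albumin promoter drives Cre in hepatocytes, so the other cells of the liver keep the gene, and an effect of Cre itself cannot be told apart from that of the deletion. All 6 libraries carry the same batch label, and neither the age of the mice nor the time on the diet is given in the labels.

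ER chaperones bind proteins that enter the secretory pathway, hold them in solution while they fold, and form or rearrange their disulfide bonds. Hepatocytes secrete large amounts of albumin, apolipoproteins and clotting factors, and their ER is correspondingly rich in these proteins. When unfolded proteins accumulate, the sensors ATF6, IRE1 and PERK start the unfolded protein response, and many ER chaperone genes are textbook targets of its transcription factors, ATF6 and XBP1, through the ER stress response element (ERSE) in their promoters.

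Total counts lay between 43086184 and 47778683 reads per library, and the lowest count of any of the 10 genes in any library was 286 reads. Slc40a1, the floxed gene, averaged 153 ± 27.0 CPM (SD, n = 3) for LT and 154 ± 18.7 CPM (SD, n = 3) for the libraries labelled Fpn-LKO. CPM here are read counts brought to a common library size by TMM scaling. The floxed transcript did not pass the test in either direction (adjusted p = 0.995, edgeR) and its mean did not lie below that of LT, so each direction given below rests on the labels. The deposited count covers the whole gene and was not split by exon, so it does not measure the floxed part on its own. The hepatocyte markers Alb, Apob and Cyp2e1, the highest of the 10 listed, had at least 8456 CPM in each of the 6 libraries. Others varied more, such as Tat with 488, 368 and 450 CPM across LT livers 1 to 3, against 1060, 702 and 260 CPM across livers 1 to 3 labelled Fpn-LKO. 5 noncoding RNAs (Rn7s1, Rn7s2, Rn7sk, Rpph1 and Rmrp) took 7.65% to 8.76% of the counts in LT and 10.2%, 3.29% and 4.49% in the libraries labelled Fpn-LKO.

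All 10 ER chaperones had higher mean levels in the libraries labelled Fpn-LKO than in LT, with fold changes between 1.24 for Calr and 1.94 for Sdf2l1. The median log2 fold change of the 10 genes was 0.63, against -0.004 over all genes tested, of which 49.4% had a positive log2 fold change. None of the 10 passed the adjustment over all genes (quasi-likelihood test of edgeR, Benjamini-Hochberg adjusted p between 0.590 and 0.982), and 0.0232% of all genes did. At an unadjusted p under 0.05 in the same test there were 5 of the 10, namely Pdia3, Hsp90b1, Pdia4, Hspa5 and Sdf2l1, where 2.62% of all genes were higher at that level. The groups did not overlap for 6 of the 10, Hsp90b1, Pdia3, Pdia4, Calr, Hyou1 and Sdf2l1, where 5.25% of all genes were higher without overlap. Among the 6879 genes with a mean of at least 10 CPM, which include all 10 chaperones, these shares were 2.83% and 5.52%. The 10 genes were chosen with earlier results of these data known, so the counts beside these shares describe them and are not a test. In these whole livers, a change in the share of a cell type and a change in RNA per cell cannot be told apart.

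**Figure D1:**
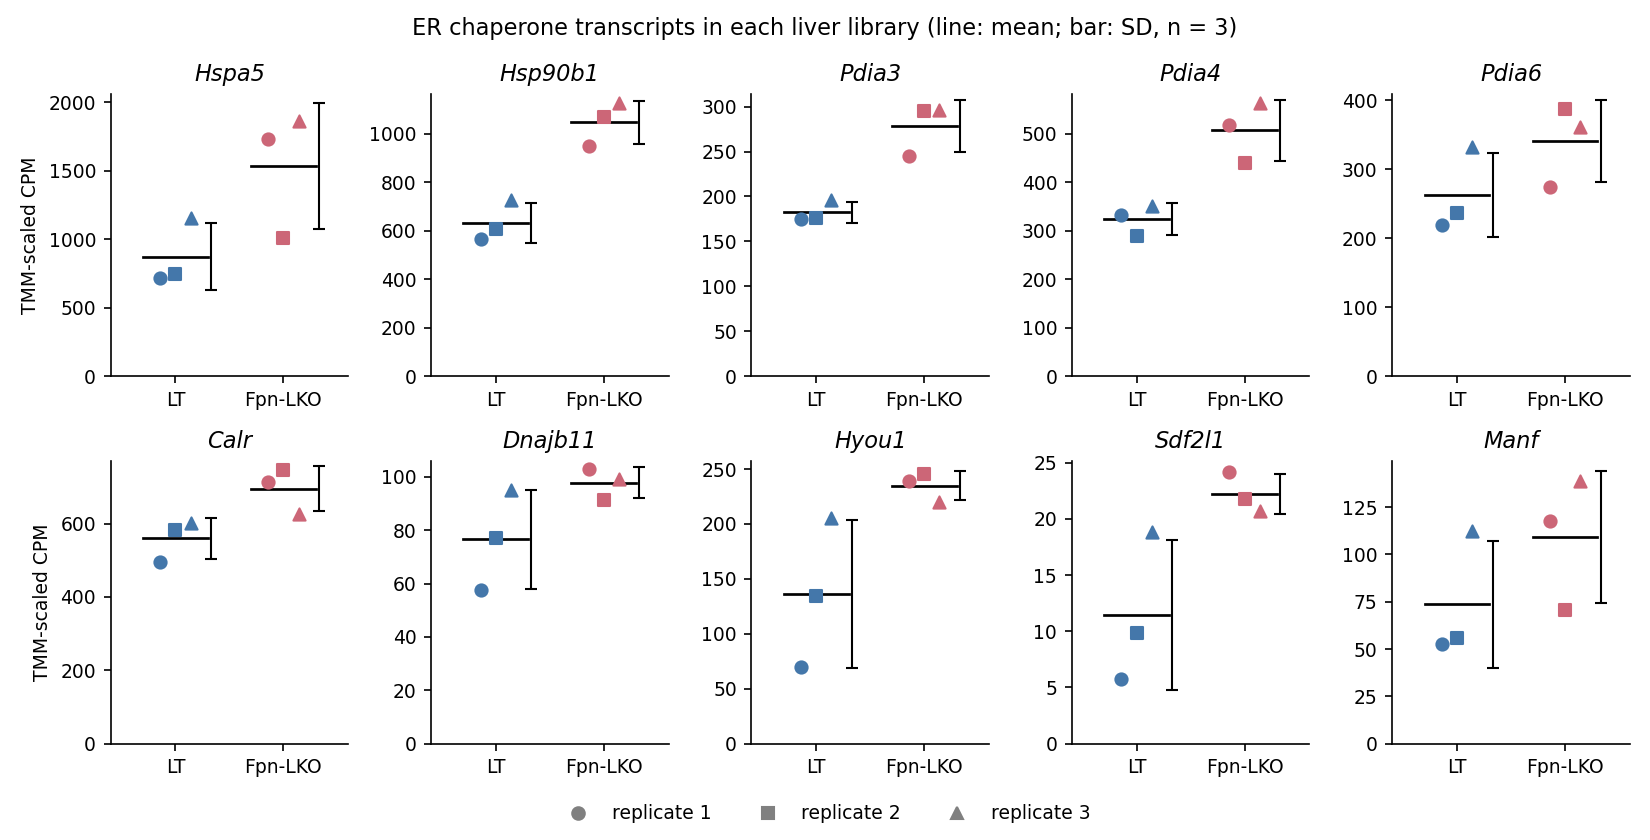
TMM-scaled CPM (vertical axis, starting at 0) of the 10 ER chaperones in LT and in the libraries labelled Fpn-LKO, 1 point per mouse with the replicate number as its shape, the line at the mean and the bar showing the SD (n = 3 each). The groups are apart for Hsp90b1, Pdia3, Pdia4, Calr, Hyou1 and Sdf2l1, whereas LT replicate 3 reaches into the other group for Hspa5, Pdia6, Dnajb11 and Manf.

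Several of these promoters share a sequence feature, which is shown here because it names the best-known regulatory site of this gene family. RefSeq promoter windows of GRCm38.p6, from 250 bases before to 50 after the start of the gene, were at hand for 8 of the 10 genes, and Hyou1 and Manf had no entry. The ERSE was searched as CCAAT, then 9 bases of any kind, then CCACG, and the related ERSE-II as ATTGG, then 1 base of any kind, then CCACG, on both strands. Of the 8 windows, 4 held an ERSE (Hspa5, Hsp90b1, Pdia6 and Calr) and 1 an ERSE-II (Dnajb11). Of all 32851 windows in the table, 0.119% held an ERSE and 0.0365% an ERSE-II. The motifs were picked as known sites of this gene family, so these shares describe the windows and are not a test. The stretches below run 5′ to 3′ on the strand of the gene, with the matches in capitals.
Hspa5 (chr2:34771985-34772083, plus strand): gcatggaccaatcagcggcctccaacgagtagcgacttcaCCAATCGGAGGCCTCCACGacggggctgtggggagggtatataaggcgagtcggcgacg
Hsp90b1 (chr10:86705493-86705694, minus strand): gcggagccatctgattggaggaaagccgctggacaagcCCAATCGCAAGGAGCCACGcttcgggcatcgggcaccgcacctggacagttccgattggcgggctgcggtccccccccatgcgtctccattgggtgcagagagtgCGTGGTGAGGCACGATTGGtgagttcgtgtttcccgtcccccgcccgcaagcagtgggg
Pdia6 (chr12:17266451-17266549, plus strand): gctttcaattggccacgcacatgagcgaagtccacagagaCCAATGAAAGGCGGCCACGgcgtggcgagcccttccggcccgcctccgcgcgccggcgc
Calr (chr8:84847035-84847133, minus strand): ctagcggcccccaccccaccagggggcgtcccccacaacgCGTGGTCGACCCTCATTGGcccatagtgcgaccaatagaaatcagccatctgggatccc
Dnajb11 (chr16:22857844-22857870, plus strand): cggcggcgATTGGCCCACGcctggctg
The Hspa5 match lay 65 to 47 bases before the start. Hsp90b1 held 2 matches, the farther one on the strand of the gene at -212 to -194 and the nearer one on the opposite strand at -107 to -89. The Pdia6 match lay at -98 to -80, and the Calr match, on the opposite strand, at -162 to -144. In Dnajb11 the ERSE-II lay after the start, at bases 8 to 18. The windows of Pdia3, Pdia4 and Sdf2l1 held no exact match to either motif. Sites that differ from these patterns were not searched for, so such sites may be present there. All 8 windows held the shorter CCAAT box, which is part of both motifs and was present in 37.4% of all windows.

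**Figure D2:**
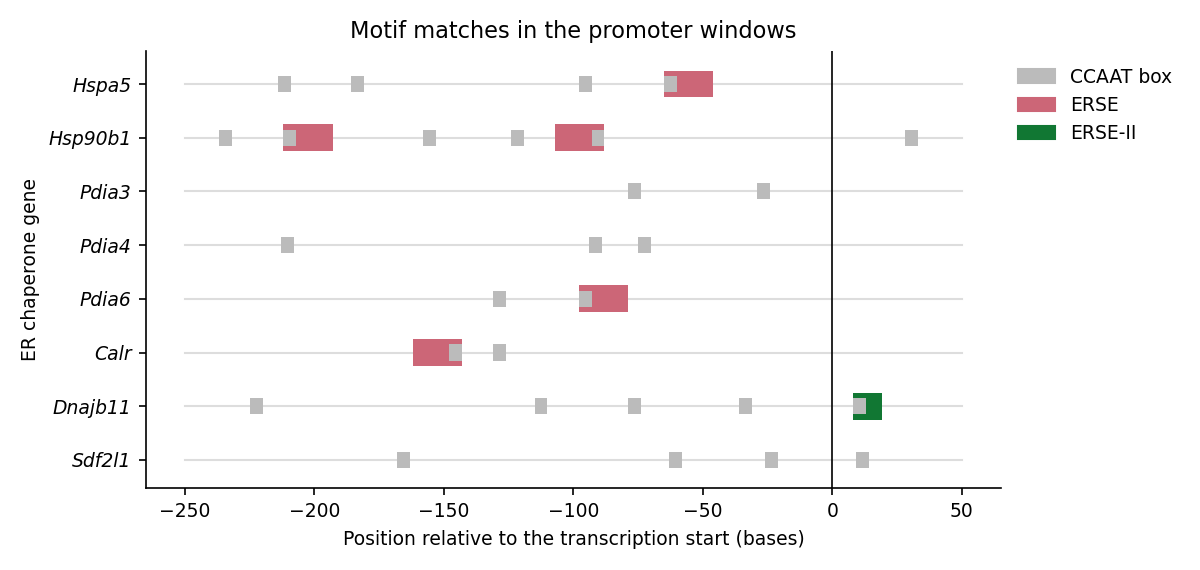
Matches of the CCAAT box (grey), the ERSE (red) and the ERSE-II (green) along the promoter windows of 8 ER chaperones, with the distance from the start of the gene in bases on the horizontal axis. The ERSE matches of Hspa5, Hsp90b1, Pdia6 and Calr lie before the start and the ERSE-II of Dnajb11 just after it.

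Genes with and without a match had log2 fold changes in overlapping ranges. The 5 genes with a match had log2 fold changes of 0.81 (Hspa5), 0.73 (Hsp90b1), 0.38 (Pdia6), 0.35 (Dnajb11) and 0.31 (Calr). Those with a window and no match had 0.95 (Sdf2l1), 0.64 (Pdia4) and 0.61 (Pdia3). Beyond the 10 chaperones, 27 tested genes had an ERSE or ERSE-II in a promoter window, a list drawn up after the chaperone values were seen. Of these, 14 had a positive and 13 a negative log2 fold change, with a median of 0.019. Canx (calnexin) was the only 1 of the 27 whose groups did not overlap, and it was higher, as were 5.25% of all genes without overlap.

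Hspa5 encodes BiP, the Hsp70 chaperone of the ER, which also holds the stress sensors inactive. The gene lies on chromosome 2 of GRCm38 (34772090 to 34776529, plus strand) and has 9 exons in its principal transcript. Hspa5 measured 715, 749 and 1154 CPM across LT livers 1 to 3, against 1735, 1007 and 1861 CPM across livers 1 to 3 labelled Fpn-LKO. Replicate 2 labelled Fpn-LKO fell below LT replicate 3, so the values of the groups overlapped (p = 0.2, two-sided exact permutation test, whose smallest possible value is 0.1). Mean levels of 873 ± 244 and 1535 ± 461 CPM (SD, n = 3 each) gave a log2 fold change of 0.81 ± 0.29 (SE). Without replicate 2 labelled Fpn-LKO the log2 fold change was 1.04, and without LT replicate 3 it was 1.07.

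Dnajb11 (chromosome 16, 22857845 to 22879634, plus strand) encodes ERdj3, a J-domain cochaperone that delivers unfolded proteins to BiP. It measured 57.7, 76.9 and 94.9 CPM across LT livers 1 to 3, against 103, 91.4 and 99.2 CPM across livers 1 to 3 labelled Fpn-LKO. The latter 3 libraries lay close together, and LT replicate 3 was within their range. The log2 fold change was 0.35 ± 0.18 (SE). Sdf2l1 (chromosome 16, 17130138 to 17132383, minus strand), which works in a complex with ERdj3, was the least abundant of the 10. It measured 5.74, 9.86 and 18.8 CPM across LT livers 1 to 3, against 24.2, 21.7 and 20.7 CPM across livers 1 to 3 labelled Fpn-LKO. The groups did not overlap, although the LT livers differed 3.28-fold among themselves and the libraries labelled Fpn-LKO only 1.17-fold. The log2 fold change of 0.95 (standard error 0.38) had the highest value of the 10 genes.

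Hyou1 (chromosome 9, 44379490 to 44392369, plus strand) encodes GRP170, a large Hsp70-like protein that exchanges the nucleotide of BiP. It measured 69.9, 134 and 205 CPM across LT livers 1 to 3, against 239, 246 and 220.1 CPM across livers 1 to 3 labelled Fpn-LKO, again without overlap. The spread followed that of Sdf2l1, with a 2.93-fold range among LT livers and a 1.12-fold range among those labelled Fpn-LKO. The lowest library labelled Fpn-LKO stood 1.07-fold above the highest LT library, and the log2 fold change was 0.79 ± 0.34 (SE).

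Hsp90b1 encodes GRP94, the Hsp90 chaperone of the ER, which folds selected secreted and membrane proteins. It lies on chromosome 10 (86690841 to 86705444, minus strand). Hsp90b1 measured 566, 608 and 726 CPM across LT livers 1 to 3, against 951, 1068 and 1126 CPM across livers 1 to 3 labelled Fpn-LKO. The gap between the groups was the widest of the 10 genes, with the lowest library labelled Fpn-LKO 1.31-fold above the highest LT library. Mean levels of 633 ± 82.5 and 1048 ± 88.8 CPM (SD, n = 3 each) gave a log2 fold change of 0.73 ± 0.16 (SE) (Benjamini-Hochberg adjusted p = 0.649 in the edgeR quasi-likelihood test, 0.00142 to 1.00 over the alternatives).

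The 3 protein disulfide isomerases oxidize and rearrange disulfide bonds of folding proteins. Pdia3 (ERp57, chromosome 2, 121413902 to 121438687, plus strand) works with calreticulin and calnexin on glycoproteins. It measured 175, 176 and 196 CPM across LT livers 1 to 3, against 245, 295 and 296 CPM across livers 1 to 3 labelled Fpn-LKO. The LT livers differed only 1.12-fold among themselves, and every library labelled Fpn-LKO lay above the highest of them, the lowest by 1.25-fold. The log2 fold change was 0.61 ± 0.13 (SE) (adjusted p = 0.590 by the same edgeR test, 0.00673 to 1.00 over the alternatives).

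Pdia4 (ERp72, chromosome 6, 47796141 to 47813512, minus strand) measured 332, 289 and 351 CPM across LT livers 1 to 3, against 517, 439.7 and 563 CPM across livers 1 to 3 labelled Fpn-LKO. The groups were again separate, by 1.25-fold, and the log2 fold change was 0.64 ± 0.15 (SE) (adjusted p = 0.675 by the same edgeR test, 0.0129 to 1.00 over the alternatives). Pdia6 (P5, chromosome 12, 17266589 to 17284785, plus strand), which also limits the activity of IRE1, measured 219, 237 and 332 CPM across LT livers 1 to 3, against 274, 387 and 362 CPM across livers 1 to 3 labelled Fpn-LKO. LT replicate 3 was above replicate 1 labelled Fpn-LKO, and the log2 fold change was 0.38 ± 0.20 (SE).

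Calr encodes calreticulin, the soluble lectin chaperone that retains glycoproteins until they are folded and buffers ER calcium. The gene lies on chromosome 8 (84842088 to 84846931, minus strand). Calr measured 496, 582 and 602 CPM across LT livers 1 to 3, against 714, 746 and 626 CPM across livers 1 to 3 labelled Fpn-LKO. The groups did not overlap, but the gap of 1.04-fold was the narrowest among the separated genes. The log2 fold change of 0.31 (standard error 0.14) was the lowest of the 10.

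Manf (chromosome 9, 106888753 to 106891938, minus strand) encodes a small ER protein that binds BiP and is secreted under stress. It measured 52.7, 55.6 and 113 CPM across LT livers 1 to 3, against 118, 70.7 and 139 CPM across livers 1 to 3 labelled Fpn-LKO. The groups overlapped, since LT replicate 3 was close to replicate 1 labelled Fpn-LKO and above replicate 2. The log2 fold change was 0.57 ± 0.35 (SE), and the unadjusted p of 0.146 was the highest among the 10 genes. Manf lies 457 kilobases from Rpl29, which was 1 of the 4 genes past the adjusted threshold over all genes (log2 fold change 3.37, adjusted p = 0.0289 by the same edgeR test). A link between Manf and Rpl29 was not tested.

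The libraries could be ordered by these genes. LT replicate 1 was the lowest library for 9 of the 10 genes and LT replicate 2 for the other, Pdia4. The highest library was always labelled Fpn-LKO, and it was replicate 3 for 5 genes, replicate 2 for 3 and replicate 1 for 2. With each gene's log2 CPM set to a mean of 0 over the 6 libraries, the average of the 10 genes was -0.65, -0.40 and 0.074 in LT replicates 1 to 3. It was 0.33, 0.23 and 0.41 in replicates 1 to 3 labelled Fpn-LKO. LT replicate 3 thus stood nearer to the other group than to its own, and it was above the gene's mean for 6 of the 10.

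Within this shared order the genes differed. Hspa5 and Manf were low in replicate 2 labelled Fpn-LKO, at -0.16 and -0.27 on the centered scale, where Hsp90b1, Pdia3 and Pdia6 stood at 0.40, 0.39 and 0.39. Pdia6 was instead low in replicate 1 labelled Fpn-LKO, at -0.11. Hyou1 and Sdf2l1 ran from -1.29 and -1.39 in LT replicate 1 to 0.26 and 0.32 in LT replicate 3, the widest spans among LT livers. Pdia3, Pdia4, Calr and Hsp90b1 had the narrowest, between 1.12-fold and 1.28-fold.

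**Figure D3:**
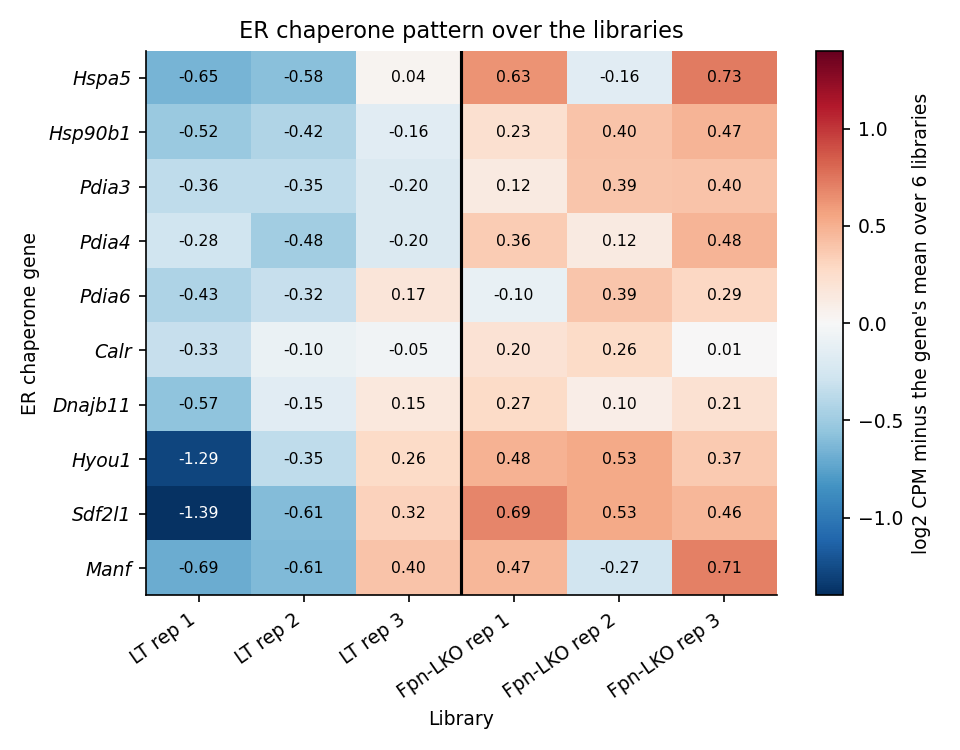
Log2 CPM of the 10 ER chaperones (rows) in the 6 libraries (columns), each value given as the difference from the gene's mean over the libraries, with red above and blue below it. LT replicates 1 and 2 are below the mean for all 10 genes, replicate 3 labelled Fpn-LKO is above it for all 10, and Hspa5 and Manf are below it in replicate 2 labelled Fpn-LKO.

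The calls at an unadjusted p under 0.05 changed when single livers were left out, most of all LT livers. At an unadjusted p under 0.05, 3 of the 10 genes remained without LT replicate 1 and 3 without LT replicate 2, and these were Hsp90b1, Pdia3 and Pdia4 both times. Without LT replicate 3 the count was 9. The background share of higher genes in these fits was 2.65%, 2.29% and 3.22%. Leaving out replicate 1, 2 or 3 labelled Fpn-LKO gave a count of 4 each time, against 5 with all livers. Background shares were not counted for these fits. Hsp90b1, Pdia3 and Pdia4 had unadjusted p-values of at most 0.0104, 0.00869 and 0.0134 in edgeR's quasi-likelihood test whichever library was left out. The same 3 genes passed the adjusted threshold with DESeq2's Wald test (adjusted p = 0.00142, 0.00673 and 0.0129), where 0.284% of all genes were called higher. By exactTest, the test the study's methods name, none passed (adjusted p = 0.0830, 0.142 and 0.182 for these 3), and 0.255% of all genes were called higher. At an unadjusted p under 0.05 there were 6 of the 10 with exactTest (2.55% of all genes higher), 7 with DESeq2 (3.04%), 8 with limma on log2(TPM + 1) (3.85%) and 8 with the replicate number as a block (2.77%).

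Levels between genes were compared in TPM, which the authors scaled to transcript length. In LT, Hspa5 was the most abundant of the 10 at 428 ± 80.7 TPM (SD, n = 3), followed by Calr at 363 ± 10.4, Hsp90b1 at 289 ± 12.9, Pdia4 at 165 ± 21.4 and Pdia6 at 153 ± 21.4. Manf had 105 ± 38.2, Pdia3 87.3 ± 5.28, Dnajb11 46.9 ± 7.06, Hyou1 37.3 ± 15.3 and Sdf2l1 12.6 ± 6.26 TPM. Neighbors in this order whose LT libraries overlapped were Hspa5 and Calr, Pdia4 and Pdia6, Pdia6 and Manf, Manf and Pdia3, and Dnajb11 and Hyou1. In the libraries labelled Fpn-LKO, Hsp90b1 (515 ± 79.3 TPM) stood above Calr (485 ± 79.2 TPM) and Hyou1 (70.8 ± 9.51 TPM) above Dnajb11 (65.2 ± 2.45 TPM), and the values of both pairs overlapped. Hspa5 had 800 ± 191 TPM there and no longer overlapped with its neighbor.

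Together the 10 transcripts summed to 1620, 1562 and 1877 TPM in LT replicates 1 to 3 and to 2577, 2749 and 2967 TPM in those labelled Fpn-LKO. In TPM, the groups did not overlap for 8 of the 10 genes, with Hspa5 and Dnajb11 added to the 6, where 7.28% of all genes with a mean of at least 1 TPM were higher without overlap. Over the 11448 of these genes that were also tested in CPM, the median log2 difference was 0.083 in log2(TPM + 1) and 0.0051 in the CPM fit, while the 5 noncoding RNAs took the smallest shares of counts in replicates 2 and 3 labelled Fpn-LKO. Their part in the TPM difference was not tested. Leaving these RNAs out of the TMM scaling kept the count of chaperones at an unadjusted p under 0.05 at 5.

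**Figure D4:**
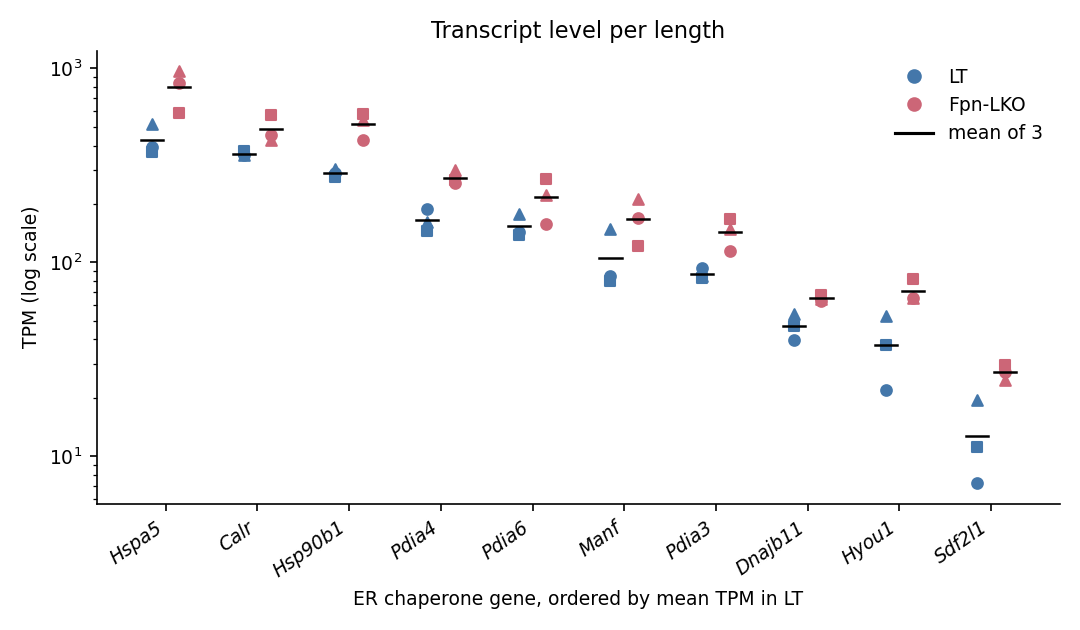
TPM (vertical axis, log scale) of the 10 ER chaperones ordered by their mean in LT, with circles, squares and triangles for replicates 1, 2 and 3, LT in blue, the libraries labelled Fpn-LKO in red and a line at each mean. The order runs from Hspa5 at 428 TPM to Sdf2l1 at 12.6 TPM in LT.

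Other genes of the pathway were read from the same fit over lists written by hand. Of 43 further ER folding genes, 29 had a positive and 14 a negative log2 fold change, with a median of 0.062. Among them 3 were higher at an unadjusted p under 0.05 in the quasi-likelihood test, where 2.62% of all genes were. Without overlap 6 were higher, where 5.25% of all genes were. Serpinh1 (HSP47, the collagen chaperone) averaged 6.30 ± 1.37 CPM for LT and 13.1 ± 3.27 CPM for the libraries labelled Fpn-LKO (SD, n = 3 each) without overlap, a log2 fold change of 1.06 ± 0.23 (SE). It passed with DESeq2 and with exactTest (adjusted p = 0.00960 and 0.0301) but not with the quasi-likelihood test (adjusted p = 0.649). Erp29 and Txndc12, a disulfide-isomerase-like protein and an ER thioredoxin, had log2 fold changes of 0.48 and 0.27, with standard errors of 0.13 and 0.10.

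Close partners of the 10 genes took different values. P4hb, the classical disulfide isomerase of the ER, averaged 1231 ± 219 CPM for LT and 1250.4 ± 31.9 CPM for the libraries labelled Fpn-LKO (SD, n = 3 each), with a log2 fold change of 0.023. Canx, the membrane-bound relative of calreticulin, had a log2 fold change of 0.17 without overlap. Dnajc3 (p58IPK), a BiP cochaperone, had 0.37 (standard error 0.18). Creld2, an ER stress target, measured 25.6, 40.3 and 87.7 CPM across LT livers 1 to 3, against 85.0, 74.2 and 178 CPM across livers 1 to 3 labelled Fpn-LKO, so that LT replicate 3 again reached into the other group. Kdelr1 and Kdelr2, receptors that return escaped ER proteins from the Golgi, had log2 fold changes of -0.035 and 0.070.

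The 14 regulators of the unfolded protein response centered on a median of -0.049 (log2 fold change), 6 of them above 0 and 8 below. Mbtps2, the protease that releases ATF6, had the smallest unadjusted p of these, with 5.34, 5.06 and 4.83 CPM across LT livers 1 to 3, against 7.09, 9.15 and 7.54 CPM across livers 1 to 3 labelled Fpn-LKO. Atf6 itself had 80.3 ± 3.93 and 74.6 ± 12.7 CPM and Ern1, which encodes IRE1, 27.1 ± 2.68 and 23.0 ± 0.957 CPM (SD, n = 3 each). Ern1 was lower in the libraries labelled Fpn-LKO without overlap (log2 fold change -0.24), as were 5.34% of all genes. Higher without overlap were 2 of the 14, Mbtps2 and Atf6b (log2 fold changes 0.64 and 0.39), where 5.25% of all genes were. Mbtps2 was the only 1 of the 14 at an unadjusted p under 0.05 in the quasi-likelihood test, where 2.62% of all genes were higher. Xbp1 measured 139, 200.1 and 235 CPM across LT livers 1 to 3, against 185, 202 and 433 CPM across livers 1 to 3 labelled Fpn-LKO, with a log2 fold change of 0.51 that lay between 0.02 and 0.73 on leaving out 1 mouse. These counts do not separate spliced from unspliced Xbp1. Ddit3 (CHOP), the proapoptotic factor of the pathway, measured 3.90, 3.16 and 10.2 CPM across LT livers 1 to 3, against 13.4, 6.04 and 4.94 CPM across livers 1 to 3 labelled Fpn-LKO.

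Of 13 genes of ER-associated degradation, 10 had a positive log2 fold change, with a median of 0.056. Sel1l, a scaffold of the degradation complex, was the only 1 of them at an unadjusted p under 0.05 and without overlap (log2 fold change 0.38, standard error 0.14). Over all genes, 2.62% were higher at that level and 5.25% higher without overlap. Derl3 had the highest log2 fold change of the list (1.51) with a standard error of 0.83, and Herpud1, an abundant stress target, had -0.16. Edem1 and Erlec1 had 0.18 and -0.11. The 13 genes of the translocon and the signal peptidase had a median of 0.072, and none was at an unadjusted p under 0.05 in the quasi-likelihood test. Spcs3, Sec11a and Ssr3 had log2 fold changes of 0.24, 0.22 and 0.12. Sec62, a translocon component, was lower without overlap (log2 fold change -0.12), as were 5.34% of all genes.

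Chaperones of other compartments were set beside the ER list. Of 17 cytosolic chaperones, 14 had a positive log2 fold change, with a median of 0.26. At an unadjusted p under 0.05 in the quasi-likelihood test 7 were higher, where 2.62% of all genes were. Without overlap 6 were higher, where 5.25% of all genes were. Hsp90aa1, the inducible cytosolic Hsp90, measured 315, 272 and 365 CPM across LT livers 1 to 3, against 499, 381 and 704 CPM across livers 1 to 3 labelled Fpn-LKO, a log2 fold change of 0.73 ± 0.24 (SE). Hspa4l, Ahsa1 and Stip1 had 0.72, 0.37 and 0.37. The 8 mitochondrial chaperones and proteases had a median of 0.048, with none at an unadjusted p under 0.05. Hspa9, the mitochondrial Hsp70, was lower without overlap (log2 fold change -0.11), as were 5.34% of all genes. Hspe1, Clpp and Dnaja3 had 0.16, 0.13 and -0.20. None of the genes in the 7 other lists passed the adjusted threshold with the quasi-likelihood test. Differences between the lists were not tested.

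**Figure D5:**
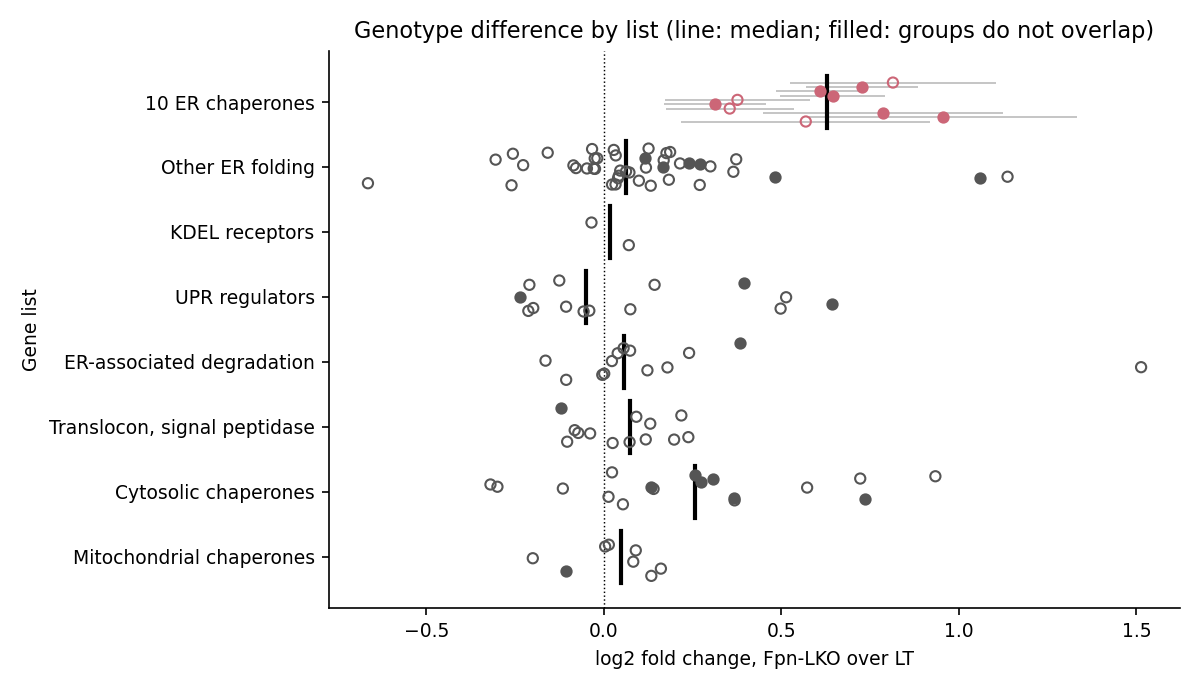
Log2 fold change (libraries labelled Fpn-LKO over LT, horizontal axis) of each tested gene of the 10 ER chaperones (red, with standard errors) and of 7 other lists (grey), with filled points for genes whose groups do not overlap and a line at each median. The median is 0.63 for the ER chaperones, 0.26 for cytosolic chaperones and between -0.049 and 0.072 for the other 6 lists.

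Markers of other cells rich in ER were examined beside these values. Of 12 pancreatic acinar markers, 10 had no read in any library, among them Prss2, Ctrb1 and Cpa1. The 12 summed to 11.1 to 28.5 CPM for LT and 12.6 to 16.5 CPM for the libraries labelled Fpn-LKO, most of it Cela1. Cela1 and Cela2a, the markers with reads, both had a negative log2 fold change. Cela2a, with 148 reads over all libraries, was lower without overlap in those labelled Fpn-LKO. The plasma and B cell markers summed to 137 to 173 CPM for LT and 154 to 223 CPM for the libraries labelled Fpn-LKO, most of it Sdc1, which hepatocytes also express, while 8 of the 12 were under 1 CPM. Mzb1, with 72 reads over all libraries, was the 1 of these higher without overlap, where 5.25% of all genes were. It had 0.10, 0.18 and 0 CPM across LT livers 1 to 3, against 0.59, 0.30 and 0.37 CPM across livers 1 to 3 labelled Fpn-LKO. The Kupffer cell and macrophage markers summed to 403 to 517 CPM in LT and to 427, 346 and 766 CPM in replicates 1 to 3 labelled Fpn-LKO. The 8 neutrophil markers summed to at most 5.09 CPM in any library. The endothelial and stellate markers summed to 711 to 775 CPM for LT and 714 to 769 CPM for those labelled Fpn-LKO, and the cholangiocyte markers to 12.8 to 84.4 and 21.0 to 29.9 CPM. Of the endothelial and stellate markers 1 was higher without overlap, Col1a1, with 259 reads over all libraries. Col1a1 had 0.68, 0.28 and 0.85 CPM across LT livers 1 to 3, against 1.89, 0.86 and 1.03 CPM across livers 1 to 3 labelled Fpn-LKO. The 5 blood markers summed to 351 to 941 CPM for LT and 474 to 1243 CPM for those labelled Fpn-LKO, and all 5 had a positive log2 fold change. The 10 hepatocyte markers summed to 83930 to 100903 CPM for LT and 87629 to 95757 CPM for those labelled Fpn-LKO. Among them 1 was higher without overlap, Hnf4a, with 239 to 265 CPM in LT and 286 to 344 CPM in those labelled Fpn-LKO. Another 1 was lower without overlap, Apob, with 16882 to 18880 CPM in LT and 15127 to 16789 CPM in those labelled Fpn-LKO. The part of RNA from blood, macrophages, plasma cells and stellate cells in the chaperone values was not tested.

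The genes whose pattern lay closest to the chaperones were sought among 6868 other genes that had a read in every library and averaged 10 CPM or more. Likeness was the root mean square difference, over the 6 libraries, between a gene's centered log2 CPM and the average of the 10 chaperones. The closest were Zfp809 (0.12), Erp29 (0.13), Ostc (0.15), Mlec (0.15), Dpp7 (0.16), Cpq (0.16), H2-T22 (0.17), Ldhd (0.17), Kpna2 (0.17) and Jam2 (0.18). Of the chaperones themselves, Hsp90b1 (0.14) and Dnajb11 (0.15) were the closest to their own average and Sdf2l1 (0.38) the farthest. Zfp809 measured 14.4, 14.4 and 21.3 CPM across LT livers 1 to 3, against 22.4, 24.8 and 24.8 CPM across livers 1 to 3 labelled Fpn-LKO. Mlec measured 54.2, 73.8 and 85.0 CPM across LT livers 1 to 3, against 114, 90.1 and 93.4 CPM across livers 1 to 3 labelled Fpn-LKO.

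Reads of the 10 genes could be shared with few other transcripts. Matches of at least 90% identity over at least 100 bases to transcripts of other genes were found for Calr, Hsp90b1 and Manf. The Hsp90b1 match with a count in the table, 1810014B01Rik, had 691 reads over the 6 libraries, or 0.298% of those of Hsp90b1. Annotated genes overlap Hspa5, Pdia3, Pdia4, Pdia6 and Dnajb11, and the highest count among them was 1643 reads for Rabepk, beside 331956 reads for Hspa5.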

How the data were processed

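RNA of 6 livers was sequenced. The members and gene lists were chosen with earlier results of these data known. Per the labels, the genome build was mm10. The values deposited by the authors are whole-number read counts for RefSeq genes, which the methods credit to StringTie (2.1.3b in the submitters' processing notes) and which carry no normalization. The authors' FPKM were not used in a result here. The authors' TPM, adjusted for transcript length and depth, sum to one total in every library. HISAT2 2.1.0 and Bowtie2 2.3.4.1 appear in the submitters' processing notes without their roles. The labels name a stranded mRNA kit and the methods a stranded total RNA kit with rRNA removal, and which was used was not settled.

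The deposited counts entered edgeR 4.0.16 (R 4.3.3) unchanged. Libraries were scaled by TMM, and groups were compared by the quasi-likelihood F test with its non-robust setting. A gene with no read in 2 or more libraries was dropped, as in the methods. Benjamini-Hochberg adjustment ran over the 17274 genes left, with a threshold of 0.05. Standard errors of log2 fold changes were derived from the F statistic. Alternatives were exactTest (named in the methods), RLE size factors, TMM without 5 abundant noncoding RNAs, DESeq2 1.42.0 (Wald test, independent filtering off), 2 other filters, robust estimation, limma 3.58.1 on TPM with a pseudocount of 1 or 0.1 (mean TPM of 1 or more required), the replicate number as a block, and leaving out each mouse. Named genes were all 10 chaperones, up to 4 genes with the smallest p in each other list, 8 textbook partners and the 10 closest in pattern. Rpl29 and the marker genes were named after their values were seen. With 3 mice against 3, the smallest exact permutation p is 0.1. The labels call the libraries separate replicates and name no pairs, so p-values measure the spread between these samples. The tests were tried on simulated data. Total counts lay between 43086184 and 47778683 reads, and the common biological coefficient of variation between mice was 0.275. Near-identical transcripts were searched with BLAST 2.17.0 in GENCODE M21. Gene positions are from RefSeq GRCm38.p6, strand and exons from GENCODE M21, both of the build the files use.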

Additional observations from a re-analysis of the deposited data

How the results depend on the processing

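The log2 fold changes of the 10 chaperones were positive in all 160 values over the 16 alternatives, from 0.19 to 1.51. These values are not independent, since each alternative used the same 6 libraries or a part of them. The count of chaperones past the adjusted threshold was 0 except with DESeq2, where it was 3. Their count at an unadjusted p under 0.05 was 5, and it was 8 with limma on log2(TPM + 1) or log2(TPM + 0.1), 7 with DESeq2, and 3 to 9 on leaving out 1 mouse (3 without LT replicate 1 or 2, 9 without LT replicate 3). Their median log2 fold change was 0.53 to 0.77 on leaving out 1 mouse. Over all genes, 4 passed the adjusted threshold, 72 with DESeq2 (49 higher, 23 lower), 63 with exactTest (44 higher, 19 lower), 7 with limma at either pseudocount, and 0 to 6 on leaving out 1 mouse. That count was 0 without LT replicate 2 and 1 without LT replicate 1, LT replicate 3 or replicate 2 labelled Fpn-LKO.

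With the replicate number as a block, 8 chaperones had an unadjusted p under 0.05 and 0 genes passed the adjusted threshold (479 were higher at an unadjusted p under 0.05). Deviations of same-numbered libraries from their group means correlated at 0.26, 0.038 and 0.14. LT replicate 2 was the only 1 of the LT libraries with a value under 0.1, and the numbers were not taken as pairs. Each LT library did correlate best with its own number. The submitters' library names also give neighboring numbers to the libraries of each same-numbered couple. Whether these mice were paired or processed together was not tested, and the main fit treats them as unpaired. The comparisons without overlap in TPM and in shares of all counts, with 8 and 7 of the 10 chaperones, were added after the data were seen. For shares of all counts the matching share over all genes was not counted, so the 7 has no background beside it.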
